A study of Mus musculus with 6 samples.

Results

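The genes described here encode complement components made by macrophages and the receptors for complement fragments: the 3 C1q chains (C1qa, C1qb and C1qc), C2 and C4b of the classical pathway, C3, Cfb and Cfp of the alternative pathway, and the anaphylatoxin receptors C3ar1 and C5ar1. They were chosen by name, as probes whose platform annotation gives 1 of these 10 gene symbols and no other. Of the 10 genes, 9 were found among the 19935 genes measured, each with 1 probe, and C3 was not analysed here. The cells were peritoneal macrophages, phagocytes of the abdominal cavity, from C57BL/6 mice, cultured in serum-containing medium, and total RNA was hybridised to Affymetrix arrays. Of 3 groups with 2 arrays each, 1 was untreated, 1 received poly I:C at 2 ug/mL for 24 h, and 1 received PAM at 1 ug/mL for 24 h. Poly I:C imitates viral double-stranded RNA and is a ligand of TLR3, and PAM is a lipopeptide that activates TLR2. Which receptor carried each response was not tested. The descriptions of the PAM samples spell the compound differently, as PAMCSK3 for replicate 1 and PAMCSK4 for replicate 2. The labels give no age or sex of the mice, no way of collecting the cells and no culture time for untreated cells. They also do not say if replicates were different animals or cultures, so the p-values rest on a spread between arrays that may be only technical.

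Complement is a cascade of plasma proteins that marks and destroys microbes. C1q binds antibody or altered surfaces and starts the classical pathway. That pathway joins a fragment of C4, the product of the gene C4b, to a fragment of C2 as a C3-cleaving enzyme (a C3 convertase). In the alternative pathway, factor B (Cfb) forms the convertase and properdin (Cfp) stabilises it. Cleavage releases C3a and C5a, small peptides that attract and activate leukocytes through C3ar1 and C5ar1. Although the liver makes most complement of plasma, macrophages are a main source of C1q and properdin, and make the other components locally.

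Values are on a log scale taken as log2, and were deposited centred, with the median of the 6 arrays at 0 for every probe. They therefore show differences between arrays and hold no signal level, so no gene's level can be set against another's. In bulk samples such as these, fewer cells of a type and less RNA per cell cannot be told apart. Differences are given as log2 value ± SE with 2 arrays per group, and adjusted p is from limma, adjusted over all 19935 genes, with a threshold of 0.05. The macrophage label was checked through the step size of the deposited numbers, which shows roughly which probes had uncentred values of at least 8 throughout. By this reading, which took in 87.8% of ribosomal protein genes and 1.36% of olfactory receptor genes and can be wrong for a single gene, 8 of 10 macrophage markers did, against none of 8 neutrophil, 6 mast cell, 4 eosinophil, 6 dendritic cell and 4 liver cell markers. The same reading held for 1 of 5 B cell markers, 1 of 6 T and NK cell markers and 5 of 12 mesothelial and fibroblast markers. These 5 were all fibroblast markers (Dcn, Col1a1, Col1a2, Col3a1 and Pdgfra). It did not hold for the fibroblast marker Lum or for any mesothelial marker.

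The comparison of each ligand with untreated cells asked which complement genes the TLR3 and TLR2 ligands moved. With poly I:C, 3 of the 9 genes rose (C2, C4b and Cfb) and 5 fell (C1qa, C1qb, C1qc, Cfp and C5ar1), and C3ar1 did not pass. Of all genes 30.4% passed in that comparison, 12.1% higher and 18.2% lower. A change of at least 2-fold was reached by 4 of the 9 (C2, C4b, Cfb and C5ar1) and by 4.82% of all genes. With PAM, 2 rose (Cfb and C2) and 6 fell (C1qa, C1qb, C1qc, C4b, Cfp and C3ar1), and C5ar1 did not pass, where 25.0% of all genes passed, 11.0% higher and 14.0% lower. With PAM, 5 of the 9 (the C1q chains, Cfb and C3ar1) and 4.20% of all genes changed at least 2-fold. The median size of the log2 difference over the 9 genes was 0.92 with poly I:C and 1.58 with PAM, beside 0.12 and 0.11 over all genes. These genes were chosen with earlier results of these data known, so the contrast with all genes is a description and was not tested. By the step-size reading, 29.4% of all genes were at least 8 throughout, as were all of the 9 except C2 and C4b, so the background is unlike. For Cfb the reading is doubtful, because its control arrays stood at -4.15 and -5.26 relative to its median. Both comparisons use the same control arrays. The largest increase belonged to Cfb with both ligands, and the largest decrease to C5ar1 with poly I:C and to C1qb with PAM.

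**Figure D1:**
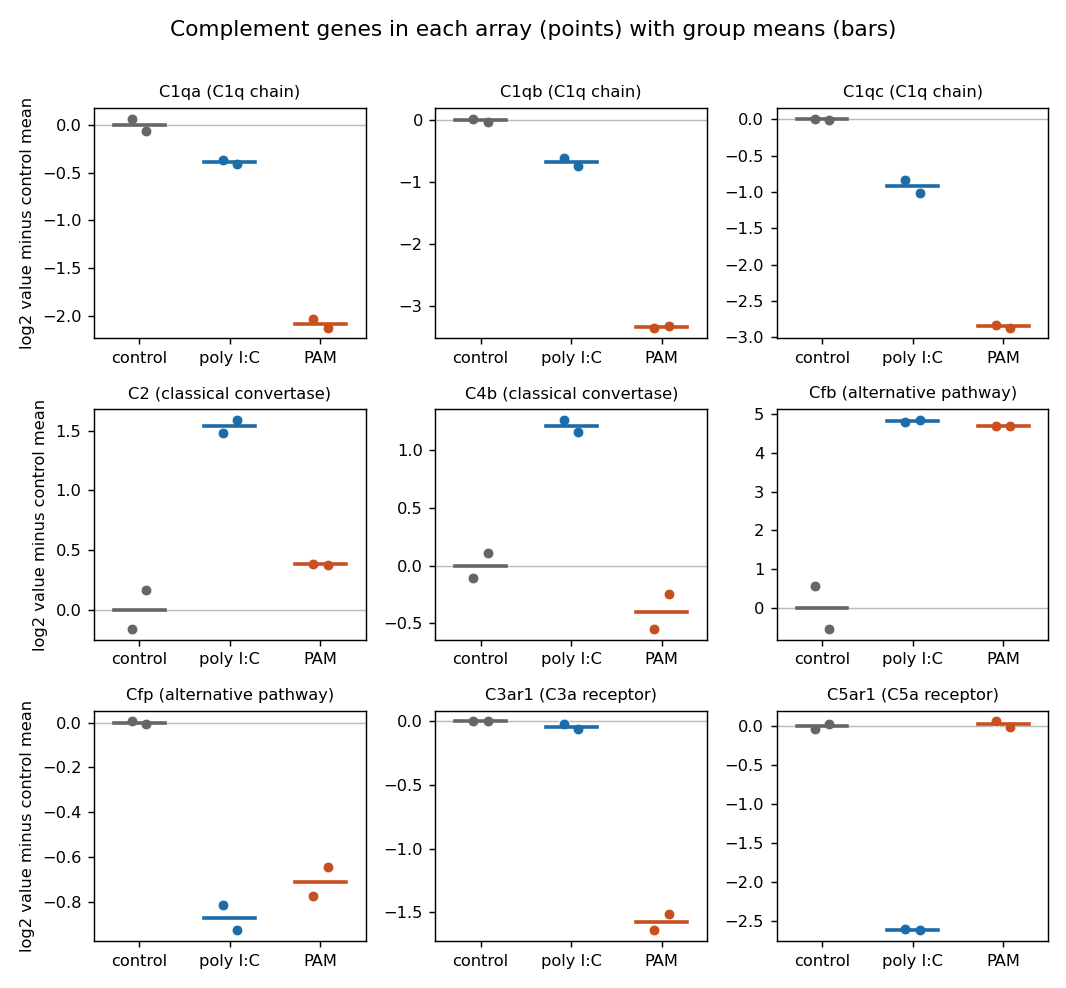
Each panel plots the log2 value of 1 gene in each of the 6 arrays (points) after subtraction of the mean of the control arrays, with the mean of each group as a bar; the vertical scales differ between panels. The C1q chains lie lowest in the PAM arrays, Cfb lies more than 4 log2 units above control with both ligands, and C3ar1 and C5ar1 each lie low with a different ligand.

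The 3 C1q chains fell with both ligands, and more with PAM. C1q is built from these chains, each with a collagen-like stalk and a globular head that recognises targets. C1qb stood at 0.70 and 0.65 in the control arrays, at 0.06 and -0.06 with poly I:C, and at -2.68 and -2.65 with PAM, relative to its median. The groups did not overlap, and the PAM arrays lay far below the other 4. C1qb thus fell by 3.34 ± 0.07 with PAM, which is 10.1-fold (adjusted p = 4.84e-09), and fell by 0.67 ± 0.07 with poly I:C, which is 1.60-fold (adjusted p = 8.2e-05).

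C1qc stood at 0.93 and 0.91 in control arrays, at 0.09 and -0.09 with poly I:C, and at -1.90 and -1.95 with PAM. It fell by 2.85 ± 0.08 with PAM (7.20-fold, adjusted p = 1.92e-08) and fell by 0.92 ± 0.08 with poly I:C (1.89-fold, adjusted p = 1.83e-05). C1qa, with control values of 0.45 and 0.32, stood at 0.02 and -0.02 with poly I:C and at -1.65 and -1.74 with PAM. The order of the groups was the same for the 3 chains, control highest and PAM lowest. C1qa fell by 2.08 ± 0.07 with PAM (4.23-fold, adjusted p = 9.43e-08) and fell by 0.39 ± 0.07 with poly I:C (1.31-fold, adjusted p = 0.00306). Between the ligands, each chain was higher in the poly I:C arrays, C1qb by 2.67 ± 0.07, C1qc by 1.93 ± 0.08 and C1qa by 1.69 ± 0.07 (adjusted p from 1.38e-08 to 2.52e-07).

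The genes of the chains lie side by side in the order C1qb, C1qc, C1qa, with no other protein-coding gene between them in the RefSeq annotation of GRCm38.p6. RefSeq promoter sequences, from 250 bases before to 50 bases after the gene start on that build, were found for 5 of the 9 genes (C1qb, C1qc, Cfp, C3ar1 and C5ar1). The promoters of C1qb (chr4:136886151-136886450, minus strand) and C1qc (chr4:136892865-136893164, minus strand) are shown because these genes moved together. Capitals mark matches, on either strand, to any of 6 motifs searched: GAAA, any 2 bases, GAAA (interferon-stimulated response element), TTCNNNGAA (STAT site, GAS), GGGA, any 2 bases, TTCC (NF-kB), AGGAAG (core of ETS factors such as PU.1), TGANTCA (AP-1) and TTGCNNAA (C/EBP).
C1qb: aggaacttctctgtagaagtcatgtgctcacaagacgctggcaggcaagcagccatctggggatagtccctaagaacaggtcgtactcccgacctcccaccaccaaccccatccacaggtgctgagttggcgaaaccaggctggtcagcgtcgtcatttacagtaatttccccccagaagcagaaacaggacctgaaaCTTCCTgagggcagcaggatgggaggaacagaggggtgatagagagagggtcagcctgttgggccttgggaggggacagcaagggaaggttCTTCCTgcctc
C1qc: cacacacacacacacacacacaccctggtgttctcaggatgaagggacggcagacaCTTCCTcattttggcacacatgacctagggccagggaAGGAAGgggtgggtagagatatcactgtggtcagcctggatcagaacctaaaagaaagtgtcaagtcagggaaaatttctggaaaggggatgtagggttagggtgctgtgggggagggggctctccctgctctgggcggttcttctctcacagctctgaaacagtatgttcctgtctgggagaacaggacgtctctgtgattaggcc
Each holds 2 matches to the ETS core and none to the other motifs. In C1qb the matches begin at -52 and 39 from the gene start, counted with the start base as 0, and in C1qc at -194 and -157. The ETS core occurs in 35.4% of all 32851 promoters of this length, so its presence does not set these genes apart, and a match is a description of letters only.

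C2 and C4b, the genes of components whose fragments form the classical C3 convertase, rose with poly I:C and moved little with PAM. C2, the protease subunit, stood at -0.54 and -0.21 in control arrays, at 1.10 and 1.21 with poly I:C, and at 0.01 and -0.01 with PAM. The poly I:C arrays were the highest, and no groups overlapped. C2 rose by 1.54 ± 0.10 with poly I:C, which is 2.90-fold (adjusted p = 4.95e-06). Its rise with PAM was 0.38 ± 0.10, which is 1.30-fold (adjusted p = 0.026), and this call ended without control replicate 1 (0.21, adjusted p = 0.0925), PAM replicate 1 (0.37, adjusted p = 0.111) or PAM replicate 2 (0.38, adjusted p = 0.0986). The direct comparison placed C2 above its PAM value in the poly I:C arrays by 1.16 ± 0.10 (adjusted p = 3.02e-05).

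C4b encodes C4, a fragment of which anchors the convertase to surfaces. C4b was near its median in control arrays (-0.11 and 0.11), high with poly I:C (1.26 and 1.15) and low with PAM (-0.55 and -0.25). It rose by 1.21 ± 0.11 with poly I:C, which is 2.31-fold (adjusted p = 3.8e-05). With PAM it fell by 0.40 ± 0.11, or 1.32-fold (adjusted p = 0.0296). That call ended without control replicate 2 (-0.29) and without PAM replicate 1 (-0.25). It also ended with only the 4 arrays compared (adjusted p = 0.0568) and with each probe tested by itself (adjusted p = 0.0525). Leaving out either poly I:C array repeats the fit of the 4 arrays compared. Between the ligands C4b differed by 1.60 ± 0.11, higher with poly I:C (adjusted p = 5.61e-06). C4b has a closely related copy, C4a, whose own probe gave log2 differences of 0.11 with poly I:C and -0.09 with PAM, neither past the threshold. Signal of one copy on the probe of the other cannot be told apart in these values.

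Cfb and Cfp, both of the alternative pathway, moved in opposite directions. Cfb, the protease of that pathway's convertase, stood at -4.15 and -5.26 in control arrays, at 0.11 and 0.16 with poly I:C, and at 0.01 and -0.01 with PAM. The 4 treated arrays lay close together and far above the controls, and the gap of 1.11 between the control arrays was the widest between replicates among the 9 genes. Cfb rose by 4.84 ± 0.27 with poly I:C, which is 28.6-fold (adjusted p = 1.54e-06), and by 4.70 ± 0.27 with PAM, which is 26.0-fold (adjusted p = 2.19e-06). Between the ligands the difference was 0.14, with a 95% confidence interval from -0.49 to 0.76 (adjusted p = 0.801). Cfb lies next to C2 on the chromosome in the RefSeq annotation, with no protein-coding gene between.

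Cfp, or properdin, stood at 0.72 and 0.70 in control arrays, at -0.10 and -0.22 with poly I:C, and at -0.07 and 0.07 with PAM. Every treated array was below both controls. Cfp fell by 0.87 ± 0.07 with poly I:C (1.83-fold, adjusted p = 2.3e-05) and fell by 0.71 ± 0.07 with PAM (1.64-fold, adjusted p = 0.000103). The ligands differed by -0.16, with an interval from -0.33 to 0.01 (adjusted p = 0.163), and this passed when the test was limited to genes read as at least 8 throughout (adjusted p = 0.0417).

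The anaphylatoxin receptors parted by ligand: C5ar1 fell with poly I:C and C3ar1 with PAM. C5ar1, the G-protein-coupled receptor for C5a, stood at -0.01 and 0.06 in control arrays, at -2.58 and -2.60 with poly I:C, and at 0.09 and 0.01 with PAM. The poly I:C arrays were far below the rest, while control and PAM arrays overlapped. C5ar1 fell by 2.61 ± 0.07 with poly I:C, which is 6.10-fold (adjusted p = 9.71e-09). With PAM its difference was 0.03, with a 95% confidence interval from -0.13 to 0.18 (adjusted p = 0.856).

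C3ar1, the receptor for C3a, stood at 0.04 in both control arrays, at 0.02 and -0.02 with poly I:C, and at -1.60 and -1.47 with PAM. Only its PAM arrays were low. C3ar1 fell by 1.58 ± 0.07 with PAM, which is 2.99-fold (adjusted p = 3.75e-07), and differed by -0.04 with poly I:C, with an interval from -0.20 to 0.12 (adjusted p = 0.729). The direct comparison gave opposite signs for the receptors. C3ar1 was higher in the poly I:C arrays than in the PAM arrays by 1.54 ± 0.07 (2.90-fold, adjusted p = 3.32e-07), and C5ar1 was lower by 6.21-fold (log2 difference -2.64 ± 0.07, adjusted p = 1.11e-08).

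The promoters of C3ar1 (chr6:122856108-122856407, minus strand) and C5ar1 (chr7:16259289-16259588, minus strand) on GRCm38.p6 are shown because these receptors responded to different ligands. Capitals again mark matches to the 6 motifs.
C3ar1: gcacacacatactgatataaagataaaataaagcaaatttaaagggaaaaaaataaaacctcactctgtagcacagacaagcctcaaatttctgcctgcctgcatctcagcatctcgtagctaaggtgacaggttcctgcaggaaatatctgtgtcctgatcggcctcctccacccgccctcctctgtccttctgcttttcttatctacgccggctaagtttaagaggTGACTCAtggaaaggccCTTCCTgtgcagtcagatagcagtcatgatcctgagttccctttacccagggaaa
C5ar1: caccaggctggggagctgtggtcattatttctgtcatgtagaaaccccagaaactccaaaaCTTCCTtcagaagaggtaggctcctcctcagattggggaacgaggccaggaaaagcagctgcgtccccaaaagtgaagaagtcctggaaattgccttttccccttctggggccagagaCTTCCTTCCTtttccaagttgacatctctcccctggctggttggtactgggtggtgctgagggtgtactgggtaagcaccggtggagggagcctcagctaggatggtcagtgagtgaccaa
The C3ar1 window holds an AP-1 match (TGACTCA, beginning at -22 from the gene start) and an ETS core (at -5). The C5ar1 window holds 3 ETS cores, beginning at -189, -71 and -67, of which the last 2 overlap. An AP-1 match occurs in 7.81% of all promoters of this length. None of the 5 promoters found, that of Cfp included, holds a match to the response element, GAS, NF-kB or C/EBP letters, which occur in 3.44%, 8.30%, 1.47% and 10.8% of promoters. This says only that these letters are not in these windows.

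Set out by class, the means over genes differed in pattern. The mean of the C1q chains, relative to control, was -0.60 and -0.72 in the poly I:C arrays and -2.74 and -2.77 in the PAM arrays. That of C2 and C4b was 1.37 in both poly I:C arrays and -0.08 and 0.06 in the PAM arrays. The 5 classical pathway genes together, in which these movements partly cancel, stood at 0.19 and 0.12 with poly I:C and at -1.68 and -1.64 with PAM. The alternative pathway mean was 2.00 and 1.97 with poly I:C and 1.97 and 2.02 with PAM, and rests on Cfb, since Cfp fell. Receptor means of -1.31 and -1.34 with poly I:C and -0.79 and -0.76 with PAM come from a different receptor with each ligand. These means are a description and were not tested, because the genes were chosen with results known.

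**Figure D2:**
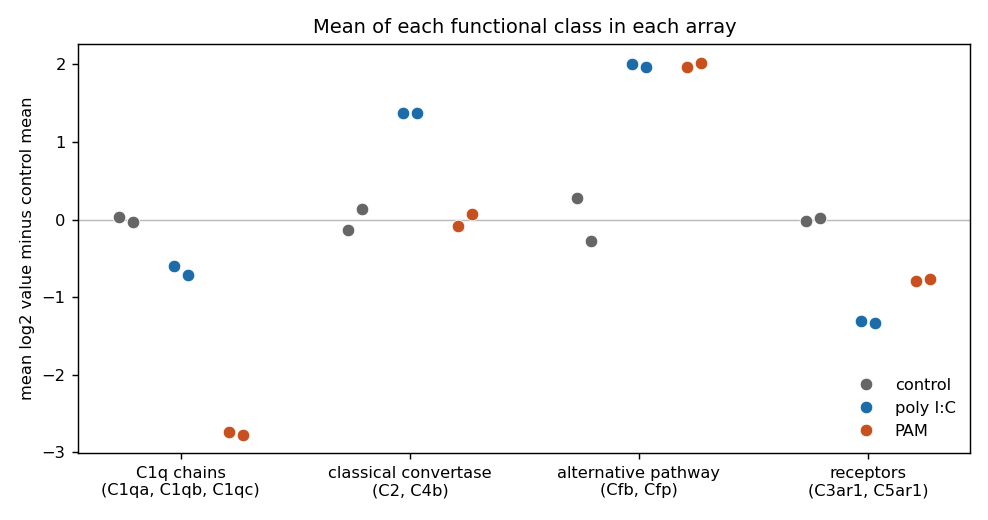
Points give, for each array, the mean log2 value of the genes of a class after subtraction of the control mean, for the C1q chains, C2 with C4b, Cfb with Cfp, and the receptors. The classical classes stand apart between the ligands (C1q chains near -0.66 and -2.76), whereas the alternative pathway points lie near 2 with both.

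The direct comparison of the ligands asked which complement genes the TLR3 and TLR2 ligands set at different values. Of the 9 genes 6 were higher with poly I:C (C1qa, C1qb, C1qc, C2, C4b and C3ar1) and 1, C5ar1, was lower, where 28.7% of all genes passed, 12.9% higher and 15.8% lower. Each of these 7 genes differed at least 2-fold, and 4.97% of all genes passed with that size. Cfb and Cfp did not pass. The spread came from all 6 arrays, the controls included, and for Cfb the adjusted p was 0.153 with only the 4 arrays compared. The doses differed between the ligands, so these values compare the treatments as given.

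**Figure D3:**
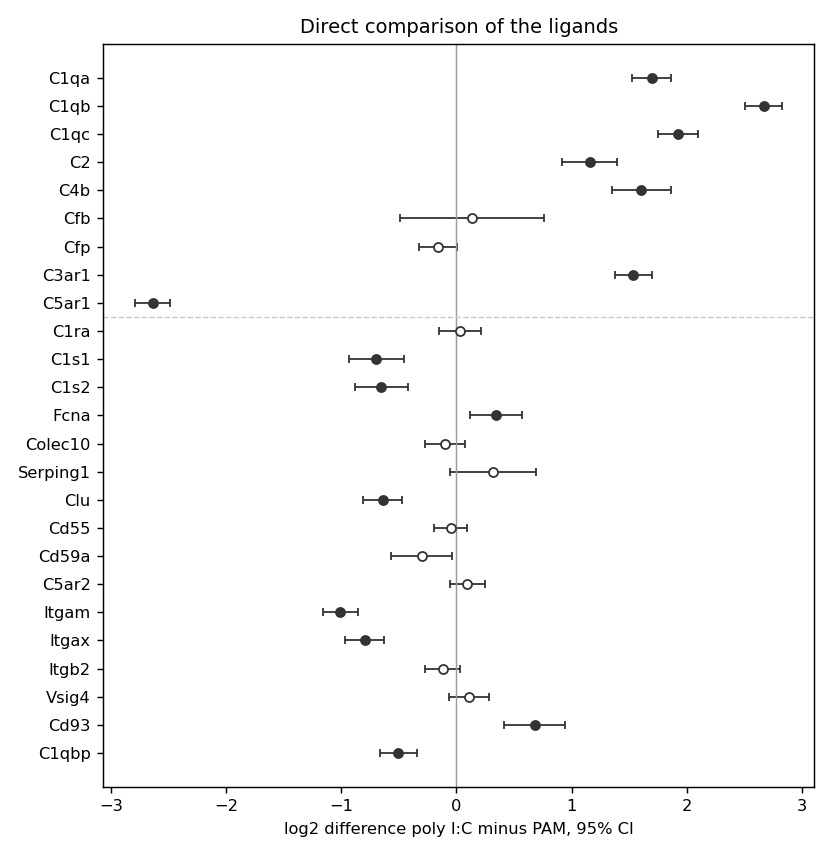
Points give the log2 difference between poly I:C and PAM with its 95% confidence interval, for the 9 main genes above the dashed line and for other complement genes below it; filled points passed an adjusted p of 0.05. C1qb (2.67) and C5ar1 (-2.64) lie farthest from 0 on either side, and Cfb (0.14) has the widest interval.

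Beyond these 9, a list of 43 further complement genes was examined, of which 40 were measured. With poly I:C 3 rose and 10 fell, with PAM 6 rose and 8 fell, and the other 27 and 26 did not pass. The 13 of 40 called with poly I:C stand near the 30.4% of all genes called, and the 14 of 40 called with PAM stand beside 25.0%. Their median log2 difference was 0.04 with poly I:C and 0.03 with PAM, beside 0.01 and 0.00 over all genes. None of the 7 terminal pathway genes (Hc, C6, C7, C8a, C8b, C8g and C9), which build the membrane pore, passed in any of the 3 comparisons by limma, and 0 of their 21 tests had an unadjusted p under 0.05. By the step-size reading, none of these 7 was at least 8 throughout, so an unchanged gene cannot be told here from a probe without signal.

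Among initiators, C1ra, the protease that activates C1s in the C1 complex, rose by 1.07 ± 0.08 with poly I:C (adjusted p = 1.01e-05) and by 1.04 ± 0.08 with PAM (adjusted p = 1.43e-05). C1s1, which cleaves C4 and C2, rose by 0.84 ± 0.10 with PAM (adjusted p = 0.000328), while its difference with poly I:C was 0.14 (adjusted p = 0.394). Its values were -0.33 and -0.06 in control arrays, -0.16 and 0.06 with poly I:C, and 0.66 and 0.63 with PAM. C1s2, a close relative of C1s1, rose by 0.70 with PAM, and probes of such copies can share signal. Both were lower in the poly I:C than in the PAM arrays, C1s1 by -0.70 (adjusted p = 0.000839) and C1s2 by -0.65 (adjusted p = 0.00097). The collectin gene Colec10 rose by 0.26 with poly I:C (adjusted p = 0.0325) and 0.36 with PAM (adjusted p = 0.00816). Fcna, a ficolin of the lectin pathway, fell by 0.41 with PAM (adjusted p = 0.0149).

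Among regulators, Serping1, the C1 inhibitor that shuts off C1r and C1s, rose with both ligands. It stood at -1.31 and -1.79 in control arrays, 0.19 and 0.45 with poly I:C, and 0.17 and -0.17 with PAM. The rise was 1.87 ± 0.16 with poly I:C (3.66-fold, adjusted p = 2.72e-05) and 1.55 ± 0.16 with PAM (2.93-fold, adjusted p = 0.00011). Of 6 membrane inhibitors 2 fell with both ligands and 4 did not pass. Beside this, 30.4% of all genes passed with poly I:C (18.2% lower) and 25.0% with PAM (14.0% lower). Cd59a, which blocks pore assembly, fell by 1.01 ± 0.12 with poly I:C and by 0.71 with PAM, and Cd55, which dissociates convertases, fell by 0.53 and 0.48. Clusterin (Clu), a soluble inhibitor of the pore, fell by 0.36 with poly I:C and rose by 0.28 with PAM, and the ligands differed (-0.64 ± 0.07, adjusted p = 0.000141).

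Among other complement receptors, 7 of 8 fell with poly I:C and 5 of 8 with PAM, and none rose, where 18.2% and 14.0% of all genes were lower. Vsig4, a macrophage receptor for C3 fragments, stood at 1.95 and 1.94 in control arrays, at -0.02 and 0.02 with poly I:C, and at -0.02 and -0.20 with PAM. It fell by 1.95 ± 0.08 with poly I:C and fell by 2.06 ± 0.08 with PAM (adjusted p = 1.31e-07 and 1.36e-07), and the ligands did not pass against each other. Cd93, a surface protein once described as a C1q receptor, fell by 2.09 ± 0.12 with poly I:C and fell by 2.77 ± 0.12 with PAM. C5ar2, the other receptor for C5a, lies next to C5ar1 in the RefSeq annotation. C5ar2 stood at 1.35 and 1.24 in control arrays, at -0.03 and 0.03 with poly I:C, and at -0.09 and -0.10 with PAM. Unlike C5ar1, whose PAM and control arrays overlapped, C5ar2 was below both controls in all 4 treated arrays, and fell by 1.30 ± 0.07 with poly I:C and by 1.39 ± 0.07 with PAM (adjusted p = 9.31e-07 and 7.29e-07). Itgam and Itgax, the alpha chains of complement receptors 3 and 4, fell by 1.49 and 1.30 with poly I:C and by 0.49 and 0.51 with PAM. Both integrin chains were lower in the poly I:C than in the PAM arrays, Itgam by -1.01 ± 0.07 (adjusted p = 4.47e-06) and Itgax by -0.80 ± 0.07 (adjusted p = 4.01e-05). Itgb2, their shared beta chain, fell by 0.25 with poly I:C (adjusted p = 0.0165), and C1qbp, which binds C1q, fell by 0.58 (adjusted p = 0.000224).

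**Figure D4:**
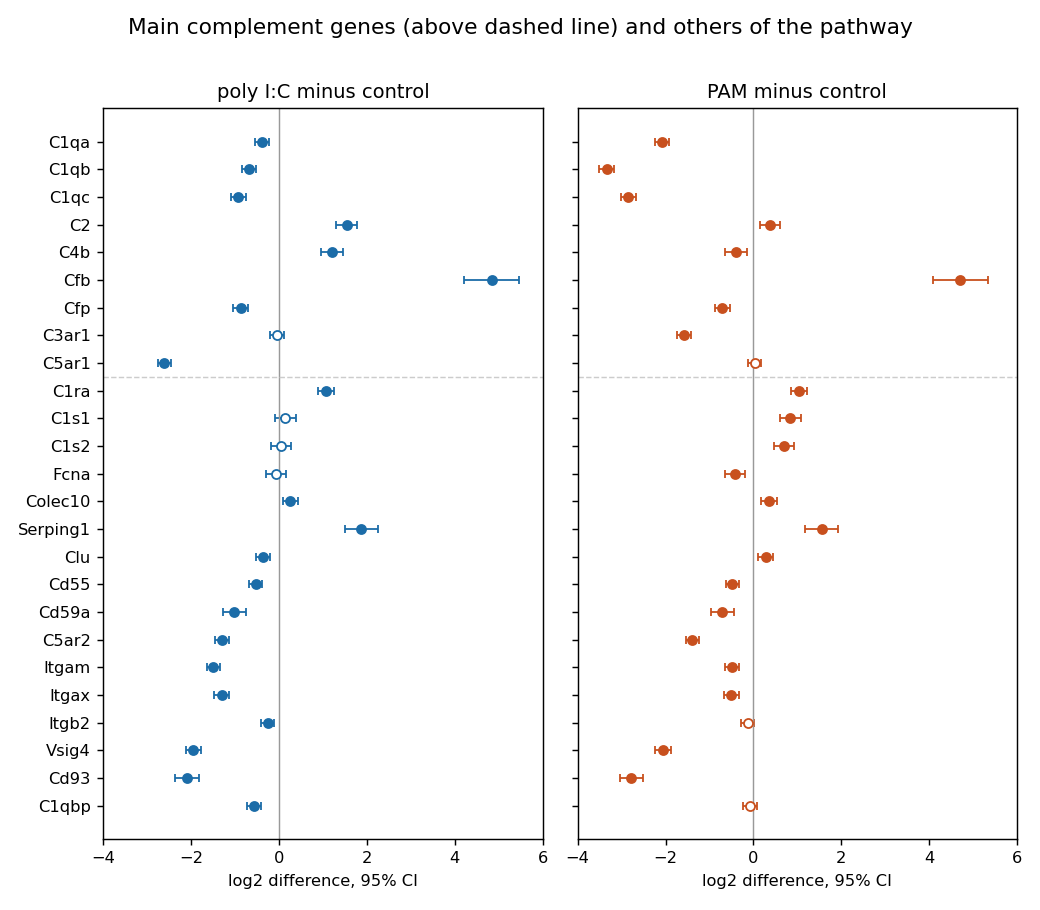
Points give log2 differences from control with 95% confidence intervals, for poly I:C on the left and PAM on the right; filled points passed an adjusted p of 0.05. Cfb and Serping1 lie to the right of 0 in both panels and C5ar2, Vsig4 and Cd93 to the left, while C5ar1 and C3ar1 leave 0 in 1 panel each.

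Markers of macrophages and of other cells moved beside these genes. Of 10 macrophage markers 3 rose and 4 fell with poly I:C, and 3 rose and 4 fell with PAM. Csf1r, Adgre1 and Cd14 rose with PAM by 0.74, 1.38 and 2.39, in the arrays where C1q and C3ar1 were low. In the same arrays Mertk, a receptor for apoptotic cells, fell by 1.23, Fcgr1 by 1.72 and Gata6 by 0.87. With poly I:C Adgre1 fell by 0.97, Gata6 by 0.67 and Cd14 by 1.28, while Fcgr1 rose by 2.65, Icam2 by 0.63 and Mertk by 0.22. Mrc1 fell by 3.27 with poly I:C and fell by 2.57 with PAM. The macrophage list's mean value ranged from 0.29 to 0.35 in control arrays, from 0.03 to 0.05 with poly I:C and from 0.09 to 0.15 with PAM.

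Mesothelial cells and fibroblasts also make complement. Of their 12 markers 5 fell with poly I:C, and 1 rose and 4 fell with PAM, with list means from 0.03 to 0.27 in control, from -0.12 to -0.07 with poly I:C and from 0.00 to 0.01 with PAM. Upk1b, a mesothelial marker, fell by 0.92 with poly I:C and by 1.54 with PAM. Dcn, a fibroblast marker, rose by 0.95 ± 0.15 with PAM (adjusted p = 0.00127), the arrays in which C1s1 and C1s2 rose, and differed by -0.06 with poly I:C (adjusted p = 0.821). Between the ligands Dcn differed by -1.01 ± 0.15 (adjusted p = 0.00071). Other fibroblast genes of the list did not rise with PAM past the threshold. Lum fell by 0.23 (adjusted p = 0.0448), and Col1a1 (0.19), Col1a2 (0.29, adjusted p = 0.0538), Col3a1 (0.02) and Pdgfra (-0.25) did not pass. With poly I:C Col1a1 fell by 0.36, Col3a1 by 0.69 and Lum by 0.23, and Col1a2 and Pdgfra did not pass. Between the ligands Col3a1 (-0.71), Col1a1 (-0.55) and Col1a2 (-0.33) were also lower with poly I:C, and Lum and Pdgfra did not pass. Of 8 neutrophil markers 1 fell with poly I:C, and with PAM 2 rose and 1 fell. The neutrophil list's mean lay from -0.04 to 0.06 in control arrays, from -0.06 to 0.01 with poly I:C and from 0.26 to 0.30 with PAM, where S100a8 rose by 2.04 and Camp by 0.64. Cxcr2 fell by 0.32 with poly I:C and fell by 0.40 with PAM, and the other 5 neutrophil markers did not pass with PAM. Siglecf, listed here for eosinophils, fell by 0.95 with poly I:C and by 1.21 with PAM, and was the only 1 of 4 eosinophil markers to pass against control. Of 5 B cell markers 2 rose and 1 fell with each ligand, and none of 6 T and NK cell, 6 mast cell, 6 dendritic cell or 4 liver cell markers passed against control by limma, with 3 of their 44 tests at an unadjusted p under 0.05. The part of other cells in the complement values was not tested.

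For each of the 9 genes, the 3 genes with the most similar values were taken, by the root mean square log2 distance over the 6 arrays after subtraction of each gene's control mean. The nearest to C1qb were Rgs2 (0.118), Cd300a (0.176) and Lsp1 (0.211), and to C1qc Entpd1 (0.145), Cd300lb (0.177) and again Lsp1 (0.236). Those of C1qa were Dnmt3a (0.0782), Ehd4 (0.129) and Cytip (0.134). C5ar1 was nearest to the desaturase genes Scd1 (0.0988) and Scd2 (0.158) and to Hsd17b7 (0.163), a sterol synthesis enzyme gene. C3ar1 was nearest to Atp8a1 (0.0497), Apobec1 (0.0828) and Aldh1a1 (0.0982). C2 was nearest to Idnk (0.0586), Asf1a (0.086) and Casp1 (0.0861), and C4b to H2aw (0.082), Aldh1b1 (0.116) and Ankle2 (0.123). Cfp was nearest to Smim14 (0.0283), Calcoco1 (0.0372) and Lbh (0.0416), and Cfb had no near match, with Ly6i (0.625), Clec4e (0.635) and Inhba (0.74) as its closest.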

How the data were processed

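Total RNA of 6 samples was hybridised to Affymetrix arrays, 2 per group. The deposited values are on a log scale taken as log2, with each probe's median over the 6 arrays at 0 (largest median 5e-07). How the authors summarised, background-corrected and normalized the arrays is not given in the sources used here. Array medians lay between -0.0049 and 0.0072. The number of arrays limits the precision.

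Of 28815 probes, the platform annotation gave 1 gene symbol for 21780, several for 1605 and none for 5430. Probes with 1 symbol were averaged per gene (19935 genes), and no symbol changed on matching 21689 of them by Entrez identifier. C3 was not analysed here, nor were some genes of the wider list. Groups were compared in 1 limma 3.58.1 model (R 4.3.3) over all genes, with eBayes moderation (3 residual and 5.68 prior degrees of freedom, median SE 0.075) and Benjamini-Hochberg adjustment over all genes at 0.05. The method was tested on simulated data. Sequences and figures were handled in Python 3.11.15 with pandas 2.3.3 and matplotlib 3.10.9.

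The genes named are the 10 chosen, the wider complement genes past the threshold against control, the 3 genes nearest to each of the 9 measured, and markers of other cells that passed with a 2-fold change. Macrophage markers, the terminal pathway genes and C4a were named besides. Camp, Cxcr2, Lum, Pdgfra and the collagen genes were added after their values were seen. The genes and lists were chosen with earlier results of these data known. Alternatives covered array scaling, moderation, arrays fitted, replicate block, each array left out, probe handling, a level filter and the threshold.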

Additional observations from a re-analysis of the deposited data

Results flagged for a closer look

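A probe whose annotation names both C1rb and C1ra was outside the comparisons, which used probes with 1 symbol. It stood at -1.79 and -1.70 in control arrays, 0.00 in both poly I:C arrays, and 0.32 and 0.20 with PAM. Its log2 difference from control was 1.75 ± 0.07 with poly I:C (limma adjusted p = 1.62e-06 over single probes) and 2.00 ± 0.07 with PAM (adjusted p = 1.32e-06). The probe naming C1ra alone gave 1.07 and 1.04.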

How the results depend on the processing

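Of 399 values of the 9 genes under the alternatives, 387 kept their direction and side of the threshold, 11 lost the threshold, 1 gained it and 0 reversed. With arrays scaled to a common median absolute deviation, the receptor mean was -1.28 with poly I:C, -0.89 with PAM and -0.40 between ligands. The C1q mean was then -3.04 with PAM and 2.43 between ligands, and that of the 5 classical genes -1.84 and 2.01. Tested only among genes at 8 or above on all arrays, which leaves out C2 and C4b, 1 gene was higher with poly I:C, 1 with PAM, and 2 were lower in the poly I:C than in the PAM arrays (C5ar1 and Cfp). A 2-fold minimum left 1 lower with poly I:C and 1 higher with PAM, and an adjusted p of 0.01 left 1 higher with PAM. Leaving out each array in turn moved the number of calls among the 9 genes with PAM, and among the other complement genes in each comparison. The alternative pathway mean then ranged from 1.70 to 2.27 with poly I:C and from 1.72 to 2.28 with PAM, that of C2 and C4b from 1.24 to 1.51 and from -0.15 to 0.13, and that of C1q from -0.72 to -0.60 with poly I:C and from 2.04 to 2.15 between ligands. Same-numbered replicates did not deviate together (correlations of -0.073, 0.155 and -0.01), so the numbers were not taken as pairs. With the replicate block, poly I:C gave 3 higher and 5 lower of the 9 genes, PAM gave 2 and 6, and 6 and 1 between ligands, with adjusted p of 0.0148 for C2 and 0.0208 for C4b with PAM. eBayes with a trend was not run, because centred values hold no level. With 2 arrays a group, the small differences of C2 and C4b with PAM vary with the arrays fitted. Leaving out single arrays, they ranged from 0.21 to 0.54 for C2 and from -0.55 to -0.25 for C4b.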
